A study of Mus musculus with 2 samples.

Results

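The genes of pyruvate oxidation and the tricarboxylic acid cycle were compared on arrays of 1 control and 1 cuprizone-treated mouse. Cuprizone binds copper, is fed in the diet, kills oligodendrocytes and strips myelin. The 34 genes were chosen by name from the pathway. They are 14 genes of pyruvate entry and 20 genes of the cycle, out of 30920 genes with a probe set. Where a gene had several probe sets, the brightest by its mean of both arrays stands for it. The mice are labelled as male C57BL/6 with cerebellum as the tissue, while the sample titles say mouse brain. Their age is not given in the labels, and each group holds 1 animal on 1 whole-transcript mouse gene array. The title of the cuprizone sample also carries a number whose meaning was not resolved. A sentence on a diet with 0.2% cuprizone for 6 weeks is attached to both samples, so a sample's own treatment label alone decides its group. Without replicates no error can be attached to a difference and none was tested. The values describe this pair of arrays, not cuprizone feeding as such.

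Pyruvate, the end product of glycolysis, enters mitochondria through a carrier and is turned into acetyl-CoA by the pyruvate dehydrogenase complex, which kinases switch off by phosphorylation and phosphatases switch on again. The cycle then oxidises acetyl-CoA in a ring of enzymes that supply electrons to the respiratory chain. In brain, neurons draw most of their ATP from this route, astrocytes hold most of the pyruvate carboxylase, and myelinating oligodendrocytes can export lactate to axons as fuel.

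Most of these genes had a somewhat lower level on the cuprizone array, and none differed by 1.5-fold. Of the 34 genes, 25 were lower and 9 higher, where 51.9% of 15810 measured genes were lower, 44.9% higher and 3.22% equal to the last digit. Measured genes are those whose mean over both arrays reached 4.34, the median of all values, as it did for all 34 members. The median log2 difference, cuprizone minus control, was -0.16 over the 34 genes and -0.01 over measured genes. A difference of at least 1.5-fold was seen in 0 of 34 members, where 2.23% of measured genes had one in either direction, and 0.259% differed by 2-fold. At 1.2-fold, 6 members were lower, where 11.5% of measured genes were, and 1 was higher, where 10.2% were. The lower ones include Mpc1 and the higher one is Mpc2, whose values carry limits given below. With the probe set with the most probes per gene, 5 members were lower by 1.2-fold. With values in the background, defined below, raised to its upper end, 0 members were higher by 1.2-fold. All 34 differences lay within the central 95% of measured genes, which ran from -0.46 to 0.47.

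Precision is limited by the number of arrays. For 225 genes with exactly 2 measured probe sets, the log2 differences of both probe sets lay a median of 0.11 apart, and in 10% of such genes more than 0.43 apart. Among the 34 genes, Sdhd alone had a difference larger in size than the second of these, and only slightly, with -0.44. Both probe sets of a gene were read on the same 2 arrays, so this gap does not measure variation between animals or arrays. The direction of the 9 higher members also depends on how the arrays are scaled. With the arrays scaled on hybridization spike-ins 33 members were lower and 1, Mpc2, was higher, and with poly-A spike-ins all 34 were lower. Spike-in scaling moved the median of all measured genes to -0.27 and to -0.42, and the members kept their distance from it.

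**Figure D1:**
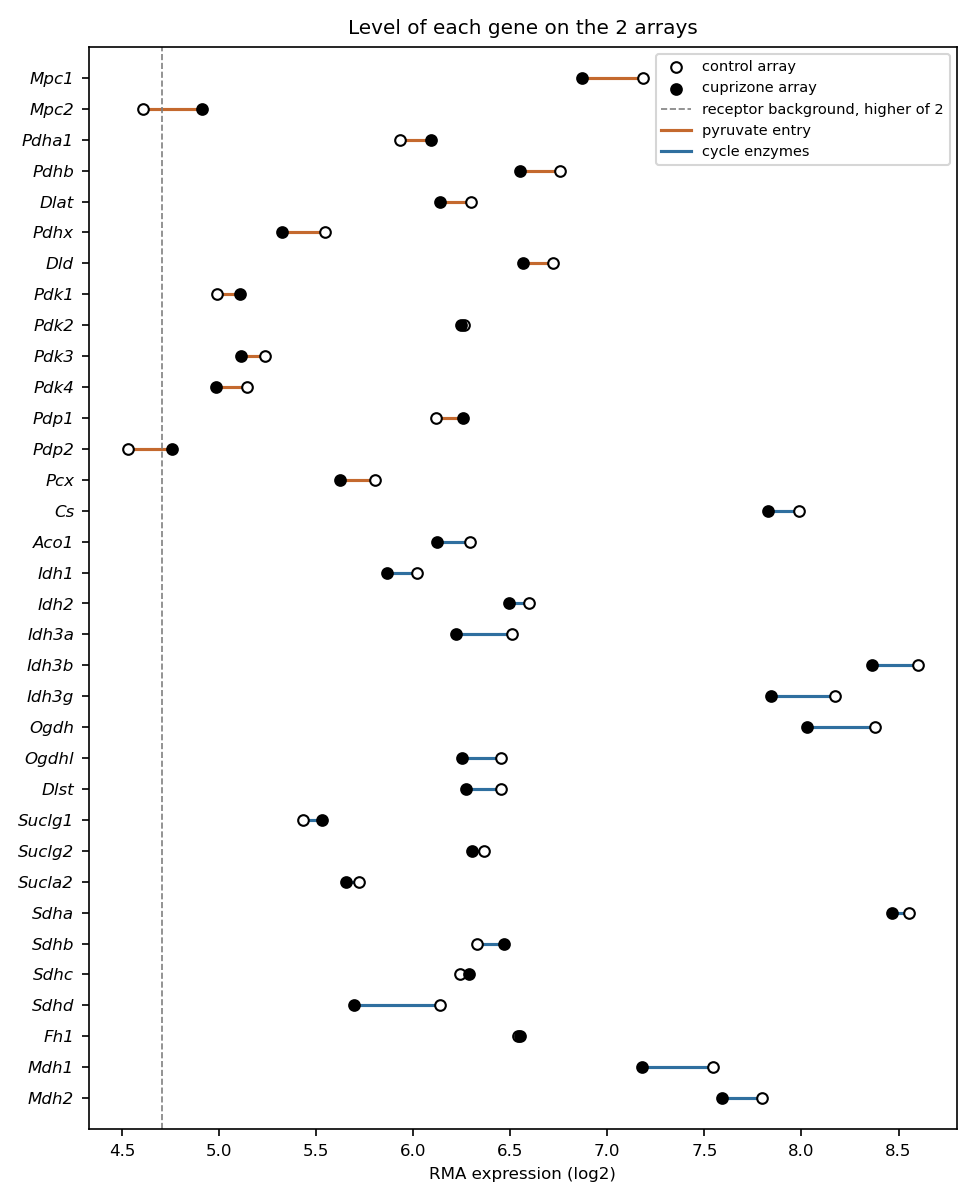
Log2 RMA level of the 34 genes on the control array (open points) and the cuprizone array (filled points), in pathway order from the carriers to malate dehydrogenase. Lines join the 2 values of a gene, orange for pyruvate entry and blue for the cycle, and the dashed line is the upper end of the background, below which Mpc2 and Pdp2 lie on the control array. Levels of different genes come from different probes and are not comparable.

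The label of the tissue and the state of other cells frame these values. Gabra6 and Pcp2, genes of cerebellar granule and Purkinje cells, were at 1.84 and 3.18 in the control and at 1.97 and 3.69 in the cuprizone sample. Each of these lay within the background, whose upper end of 4.68 and 4.71 is that of the middle 95% of values of 1459 olfactory and vomeronasal receptor genes. Drd2 (6.55 and 6.35) and Rgs9 (7.67 and 7.73), both genes of the striatum, were above it, so the samples are called the arrays labelled cerebellum. All 10 oligodendrocyte markers were lower, and their summed linear signal was 3503 in the control and 1681 in the cuprizone sample. Microglial markers were higher in 9 of 10 genes, with sums of 622 and 994. Neuronal markers were lower in 9 of 12 genes with a median log2 difference of -0.14, close to that of the pathway, and sums of 3005 and 2954. Astrocyte markers were lower in 4 of 10 (2675 and 2798) and endothelial markers in 8 of 8 as deposited (860 and 730). All 10 oligodendrocyte, 10 astrocyte and 12 neuronal markers were above the background on both arrays, as were 8 of 10 microglial and 7 of 8 endothelial ones. Of 11 cerebellar neuron genes 4 were above it on both arrays, and of 10 forebrain neuron genes all were, with a median difference of -0.05. Choroid plexus markers were above it on both arrays in 4 of 7 genes and muscle markers in 3 of 7. In bulk tissue, fewer cells of a type and less RNA per cell cannot be told apart, and the part of these shifts in the results below was not tested.

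The letters upstream of the genes with the largest negative differences at their own locus are shown first, because Sdhd and Idh3g begin close to a neighbour that is read the other way, and because Sdhd and Sdhb, subunits of the same enzyme, differed in sign. Sequences are from RefSeq on GRCm38.p6, read 5′ to 3′ on the strand of the gene and ending at the base before its start. Each has 250 bases, or fewer where the neighbour's start comes first. For Ogdh, which has several starts there, the one farthest upstream was taken. Capitals mark CTTCCGG or CCGGAAG (the core bound by ETS factors), TGACGTCA (the cyclic AMP response element) and GCATGCGC (the core bound by NRF1, a regulator of mitochondrial genes).
Sdhd, chr9:50603850-50603900, minus strand: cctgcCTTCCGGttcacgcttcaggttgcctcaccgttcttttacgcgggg
Mdh1, chr11:21571935-21572184, minus strand: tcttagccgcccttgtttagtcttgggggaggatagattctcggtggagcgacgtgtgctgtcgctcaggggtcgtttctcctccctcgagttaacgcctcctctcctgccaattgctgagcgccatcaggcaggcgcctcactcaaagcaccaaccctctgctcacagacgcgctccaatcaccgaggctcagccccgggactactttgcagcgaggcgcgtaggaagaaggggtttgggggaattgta
Ogdh, chr11:6291347-6291596, plus strand: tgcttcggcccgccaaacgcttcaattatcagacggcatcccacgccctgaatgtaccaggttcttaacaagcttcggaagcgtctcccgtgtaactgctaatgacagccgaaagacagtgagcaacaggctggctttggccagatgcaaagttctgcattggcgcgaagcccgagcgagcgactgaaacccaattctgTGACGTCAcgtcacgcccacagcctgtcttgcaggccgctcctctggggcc
Idh3g, chrX:73786898-73787022, minus strand: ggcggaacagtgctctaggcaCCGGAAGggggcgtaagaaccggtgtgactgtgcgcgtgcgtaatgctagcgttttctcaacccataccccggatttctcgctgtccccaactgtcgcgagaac
Sdhb, chr4:140961021-140961270, plus strand: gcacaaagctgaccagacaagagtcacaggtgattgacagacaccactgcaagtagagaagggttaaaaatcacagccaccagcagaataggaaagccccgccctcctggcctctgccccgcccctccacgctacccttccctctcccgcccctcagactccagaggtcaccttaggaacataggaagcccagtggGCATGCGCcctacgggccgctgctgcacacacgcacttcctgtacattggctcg

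As printed, these stretches differ in what they hold. The ETS letters begin 46 bases before the start of Sdhd and 104 before that of Idh3g, the cyclic AMP element 51 before that of Ogdh and the NRF1 letters 54 before that of Sdhb. None of the 3 is present in the Mdh1 stretch. Outside the printed stretches, the ETS letters also begin at base 7 counted from the start of Sdhb. Sdhd and Sdhb thus both have the ETS letters near their start. The NRF1 letters also begin 15 and 36 bases before further starts of Ogdh. Promoters of 31 of the 34 genes were in the RefSeq table, with 41 windows of 250 bases before and 50 after a start. Over whole windows and both strands, CCGGAAG was found in 14.6% of the members' windows (6 genes) and 8.86% of all 32851 windows. TGACGTCA was in 9.76% (4 windows of 2 genes, Mdh2 and Ogdh) and 1.79%. GCATGCGC was in 7.32% (3 windows of 2 genes, Ogdh and Sdhb) and 2.71%. The shorter letters CCAAT (bound by NF-Y) were in 63.4% and 37.4%, and GGGCGG (bound by SP factors) in 68.3% and 35.7%. TCAAGGTCA, the site of estrogen-related receptors, was in 0.423% of all windows and in 1 window of a member, that of Sdhd, on the opposite strand beginning at base 37 counted from the start. Several windows of Ogdh overlap and share matches, so the members' shares for TGACGTCA, GCATGCGC, CCAAT and GGGCGG count the same Ogdh site more than once. None of these strings contains another. A match of letters is a description and shows no binding.

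The carriers gave opposite values, and the larger of them rests on an odd probe set. Mpc1 and Mpc2 together form the mitochondrial pyruvate carrier. By the rule on probe sets, Mpc1 was at 7.18 in the control and 6.87 in the cuprizone sample, a log2 difference of -0.31. That probe set has 9 probes in 330 bases on chromosome 12 (110858565 to 110858894, minus strand), whereas RefSeq places the Mpc1 gene on chromosome 17. The probe set on chromosome 17 (8282904 to 8297661), of whose 27 probes the annotation assigns 8 to the listed transcript, was at 6.08 and 6.13, a difference of 0.06. The sources used here do not name the genome build of the array coordinates. For some members, such as Ogdh (6291597) and Sdhd (50603849), the array position of the start equals the RefSeq start on GRCm38.p6. For others, such as Cs, it does not. Mpc2 was at 4.61, within the background, in the control and 4.91 in the cuprizone sample, which is higher by at least 0.23. No direction for the carrier as a whole can be read from these values.

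Pyruvate dehydrogenase was lower in 4 of its 5 genes, and in all 5 with either spike-in scaling. Pdhb, the beta subunit of the E1 component, was at 6.76 in the control and 6.55 in the cuprizone sample, a log2 difference of -0.21. Its partner Pdha1, the E1 alpha subunit that carries the regulatory phosphorylation sites, went the other way, with 5.93 and 6.09, a difference of 0.16. The 2 subunits of E1, which assemble in equal numbers, thus differed in sign on these arrays. Dlat, the E2 core that hands over the acetyl group, was at 6.30 and 6.14. Dld, the E3 dehydrogenase that the oxoglutarate complex shares, was at 6.72 and 6.57. Both differed by -0.16. Pdhx, the protein that binds E3 to the core, had the largest difference of the complex, -0.22, with 5.55 and 5.32.

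The kinases and phosphatases that set the activity of the complex showed no common direction, with 3 genes lower, 3 higher and a median difference of 0.05 as deposited, though all 6 were lower with either spike-in scaling. Pdk4, the kinase induced by fasting and fatty acids, was at 5.14 in the control and 4.99 in the cuprizone sample, a log2 difference of -0.16. Pdk3 was at 5.24 and 5.11 (-0.13) and Pdk2, a widely expressed kinase, at 6.26 and 6.24 (-0.02). Pdk1, a target of hypoxia-inducible factor in cultured cells, was the only kinase with a higher value, with 4.99 and 5.11 (0.12). None of the 4 kinases reached 1.2-fold, each was above the background on both arrays and each has a single probe set. Pdp1, the calcium-stimulated phosphatase, was at 6.12 and 6.26, a difference of 0.14. Pdp2, the other phosphatase, was at 4.53, within the background, and at 4.76, which is higher by at least 0.07. Pcx, the carboxylase that makes oxaloacetate from pyruvate and in brain is mainly astrocytic, was at 5.80 and 5.63 (-0.18).

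**Figure D2:**
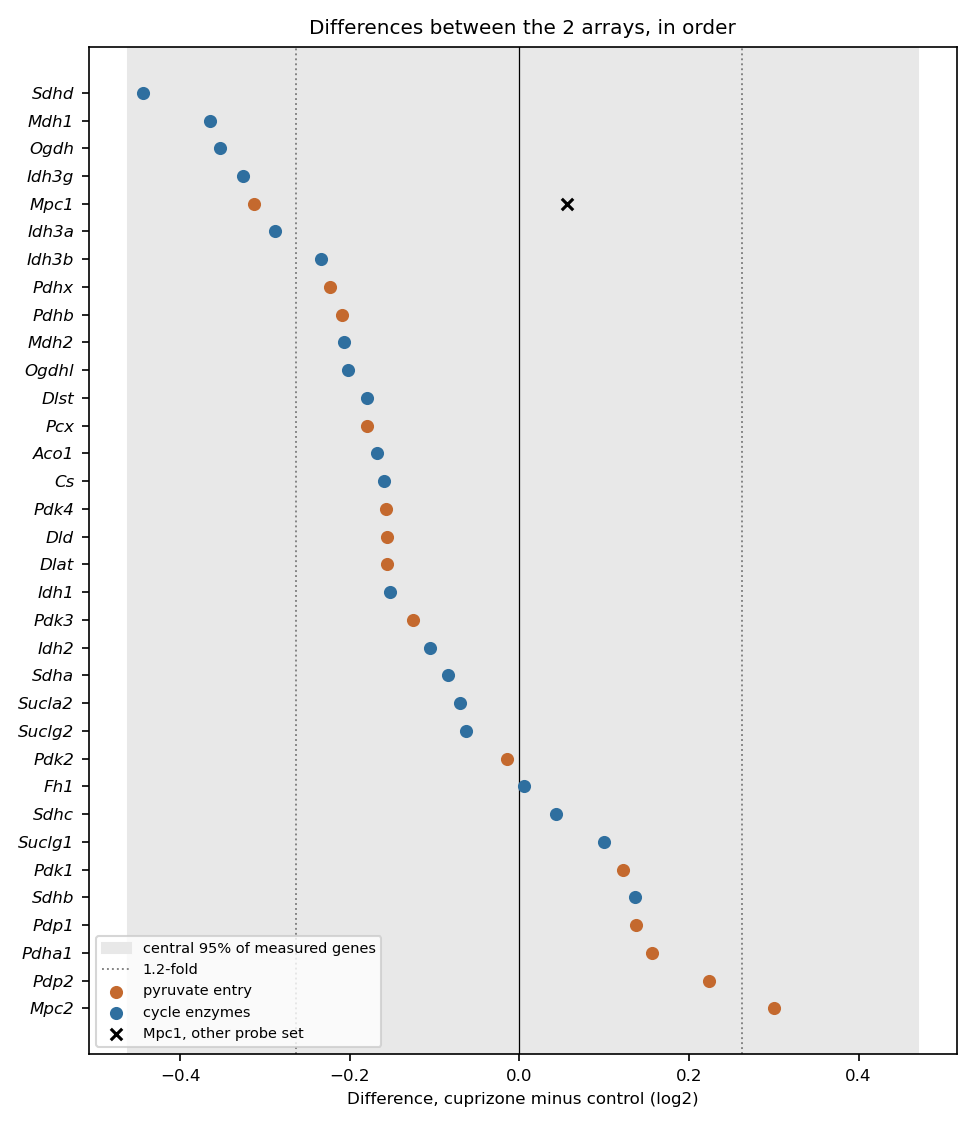
Log2 difference, cuprizone minus control, for each of the 34 genes in order, orange for pyruvate entry and blue for the cycle. The grey band is the central 95% of measured genes, dotted lines mark 1.2-fold, the cross is the Mpc1 probe set on chromosome 17, and Mpc2 and Pdp2 are drawn at their measured value and not at their bound. All points lie in the band, 25 of them below 0, from -0.44 for Sdhd to 0.30 for Mpc2.

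The first steps of the cycle were lower in all 7 genes from citrate synthase to isocitrate dehydrogenase. Cs, which joins acetyl-CoA to oxaloacetate, was at 7.99 in the control and 7.83 in the cuprizone sample, a log2 difference of -0.16. Aco1, the cytosolic aconitase that doubles as an iron-sensing RNA-binding protein, was at 6.29 and 6.12 (-0.17). All 3 subunits of the NAD-dependent isocitrate dehydrogenase, the rate-controlling form in the cycle, lay further from 0 than these. Idh3a, the catalytic alpha subunit, was at 6.51 and 6.22, a difference of -0.29. Idh3b, the beta subunit, was at 8.60 and 8.36 (-0.23), and Idh3g, the gamma subunit, was at 8.17 and 7.84 (-0.33). The NADP-dependent forms, which make NADPH, were closer to 0. Idh1 in the cytosol was at 6.02 and 5.87 (-0.15) and Idh2 in mitochondria at 6.60 and 6.49 (-0.11). These genes lie on 6 chromosomes, 1, 2, 4, 7, 9 and 10, and on the X chromosome.

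The oxoglutarate dehydrogenase complex was lower in all 3 of its own genes. Ogdh, the E1 component that decarboxylates oxoglutarate, was at 8.38 in the control and 8.03 in the cuprizone sample, a log2 difference of -0.35, or 1.28-fold. Ogdhl, its brain-enriched relative, was at 6.45 and 6.25 (-0.20), and Dlst, the succinyltransferase core, at 6.45 and 6.27 (-0.18). Succinyl-CoA ligase, the next step, stayed nearer 0. Suclg1, the alpha subunit common to both forms of the enzyme, was at 5.43 and 5.53 (0.10). Sucla2, the beta subunit that makes ATP and predominates in neurons, was at 5.72 and 5.65 (-0.07), and Suclg2, the beta subunit that makes GTP, at 6.36 and 6.30 (-0.06). The 2 beta subunits thus had nearly equal differences.

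Succinate dehydrogenase, which is also complex II of the respiratory chain, held the largest negative difference of the pathway beside a pair of values that were higher as deposited and lower with either spike-in scaling. Sdhd, the small membrane anchor, was at 6.14 in the control and 5.70 in the cuprizone sample, a log2 difference of -0.44, or 1.36-fold, and 2.97% of measured genes had a lower difference. Its probe set has 19 probes, all assigned to the listed transcript, on chromosome 9 from 50596338 to 50603849 on the minus strand. Sdhc, the other anchor, was at 6.24 and 6.29, a difference of 0.04. Sdha, the flavin subunit that oxidises succinate, was at 8.55 and 8.47 (-0.08), and Sdhb, the iron-sulfur subunit, at 6.33 and 6.47 (0.14). The subunits, which assemble in equal numbers, thus spanned the range from the lowest difference of the pathway to values above 0. The neighbour Timm8b, a chaperone of mitochondrial protein import that starts 52 bases from Sdhd and runs the other way, was at 6.88 and 6.72 (-0.16). For Idh3g the neighbour is Ssr4, a subunit of the translocon-associated complex of the endoplasmic reticulum, 126 bases away, which was at 6.04 and 6.30 (0.26), opposite in sign to Idh3g.

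Fumarase and the malate dehydrogenases close the ring. Fh1, which hydrates fumarate, was at 6.54 in the control and 6.55 in the cuprizone sample, a log2 difference of 0.01. Mdh2, the mitochondrial enzyme that restores oxaloacetate, was at 7.80 and 7.59 (-0.21). Mdh1, its cytosolic counterpart in the malate-aspartate shuttle, had the second largest negative difference of the 34 genes, with 7.55 and 7.18 (-0.36), or 1.29-fold.

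Pyruvate entry and the cycle had nearly the same median but differed in how their genes were spread. The median log2 difference was -0.14 over the 14 entry genes and -0.16 over the 20 cycle genes. Of the entry genes 9 were lower and 5 higher, and 16 of the cycle genes were lower and 4 higher. At 1.2-fold, 1 entry gene was lower and 1 higher, against 5 and 0 of the cycle genes. The lower entry gene is Mpc1 by its probe set on chromosome 12, and the one on chromosome 17 differed by 0.06. The higher one is Mpc2, whose bound of 0.23 is below the log2 value of 1.2-fold, 0.26. Means lay further apart than medians, at -0.04 and -0.16, since the entry genes hold 5 of the 6 largest positive values. With the Mpc1 probe set on chromosome 17 the median of the entry genes was -0.07, and that of the cycle genes stayed at -0.16. The 8 entry genes other than kinases and phosphatases had a median of -0.17, and the 17 cycle genes that code for mitochondrial enzymes -0.16. In each of these comparisons the medians of the arms lay less than 0.1 apart.

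**Figure D3:**
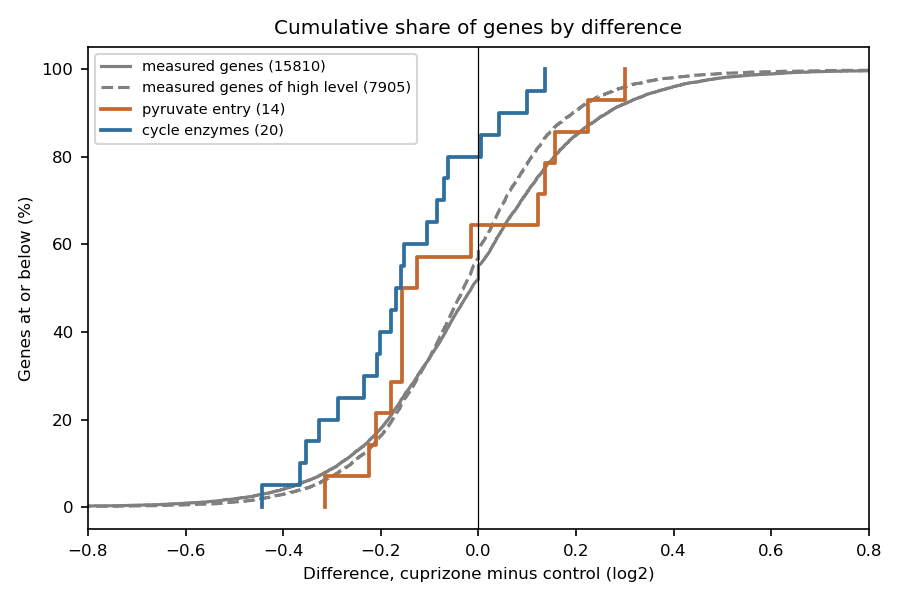
Cumulative share of genes, in percent, by log2 difference, cuprizone minus control, for the 14 entry genes, the 20 cycle genes, all 15810 measured genes and the 7905 of them over the 75th percentile of all values. The cycle genes lie left of both grey lines over most of their range, while the entry genes cross to the right of them above 0.

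The members were also set beside genes of similarly high signal, although a signal depends on the probes as well as on the gene. Of the 27 members whose mean level was over 5.55, the 75th percentile of all values, 22 were lower, with a median of -0.16, where 56.7% of all genes over that level were lower, with a median of -0.03. Of the 7 members below that level 3 were lower and 4 higher. Of the 7905 measured genes below it 47.2% were lower, a share near that of these members. With the trend of the difference on level removed by lowess, medians were -0.12 for entry and -0.13 for the cycle, and 24 of the 34 genes were lower.

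Genes upstream of and around the pathway were described by lists drawn up beside the members. Glycolysis had 12 of 17 genes lower and a median log2 difference of -0.14, with 3 genes at least 1.2-fold lower and 0 higher. The median is the value of Gapdh, from a probe set on chromosome 4. Whether the gene itself lies there was not looked up. Tpi1, the triose phosphate isomerase, was at 7.59 in the control and 7.16 in the cuprizone sample (-0.42). Pkm, the kinase that makes pyruvate, was at 8.12 and 7.84 (-0.29). Supply of glucose, lactate and ketones had 7 of 10 genes lower and a median of -0.03. Slc16a1, the lactate transporter of endothelium and oligodendrocytes, was at 6.56 and 6.84 (0.28), and Bdh1, the first enzyme of ketone use, at 5.71 and 5.45 (-0.27). Of 17 genes of cofactor supply 14 were above the background on at least 1 array, and 8 of these were lower, with a median of -0.06. Lias, which makes the lipoate that Dlat and Dlst carry, was at 5.60 and 5.28 (-0.33), and Slc19a3, a thiamine transporter, at 5.36 and 5.06 (-0.30).

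Of 25 genes on routes that join or leave the cycle at its intermediates, 22 were above the background on at least 1 array. Of these 12 were lower, with a median log2 difference of -0.03, and 4 were at least 1.2-fold lower and 0 higher. Mcee, which feeds propionate carbon toward succinyl-CoA, was at 4.98 in the control and 4.59, within the background, in the cuprizone sample, which is lower by at least 0.27. Aldh5a1, the last enzyme of the GABA shunt into succinate, was at 6.77 and 6.43 (-0.34). Of 13 other subunits and assembly factors 8 were above it on at least 1 array, and 7 of these were lower, with a median of -0.11. Sdhaf1 and Sdhaf4, assembly factors of succinate dehydrogenase, were within the background on both arrays, with 4.27 and 4.66 for the first and 4.34 and 3.72 for the second, so no difference is given. Sdhaf3, a further such factor, was at 5.40 and 5.16 (-0.24). For the respiratory chain and ATP synthase, a set taken by gene symbol after values had been seen, 40 of 66 measured genes were lower and 22 higher, with a median of -0.08. Among them Atp5g1, a gene for the c subunit of ATP synthase, was at 4.94 in the control and 5.87 in the cuprizone sample (0.93), more than any of the 34 genes, from a probe set with 2 of 9 probes assigned to its transcript.

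**Figure D4:**
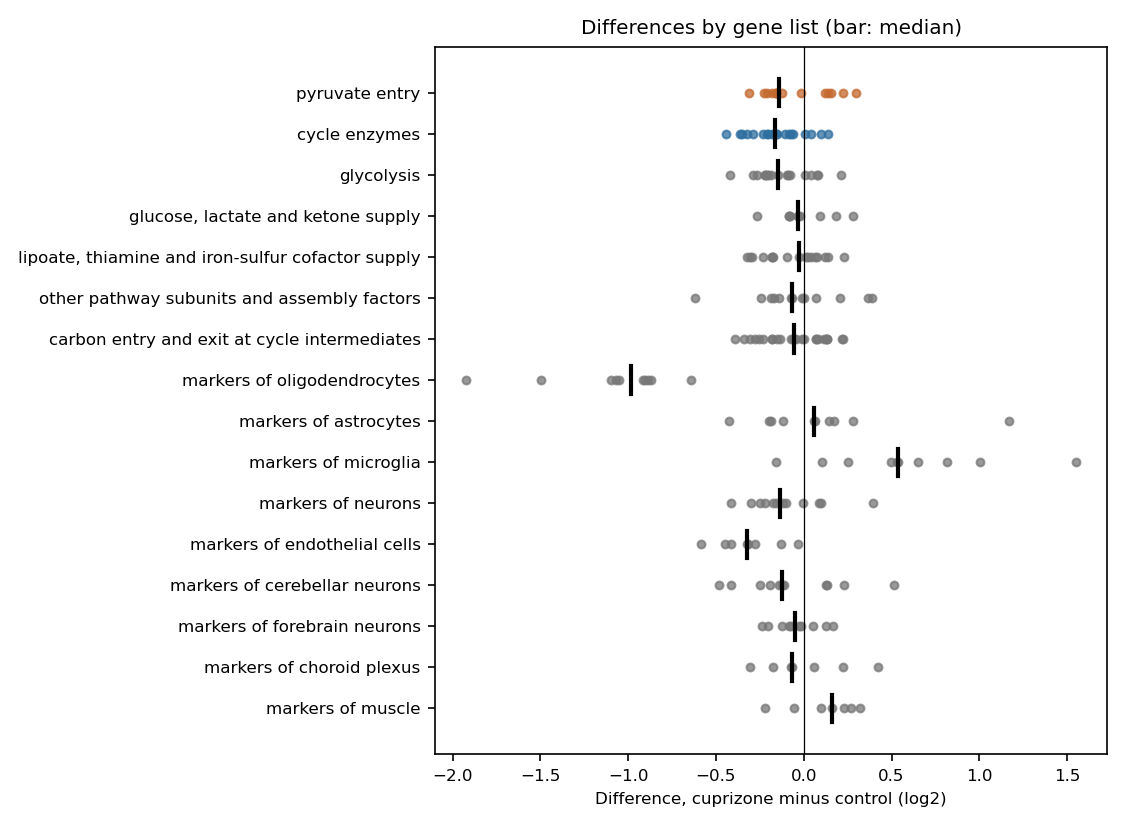
Log2 differences, cuprizone minus control, of single genes (points) and the median of each list (bars) for the members, 5 pathway lists and 9 marker lists, with values within the background drawn as measured. Oligodendrocyte markers, with a median of -0.98, and microglial markers, with 0.53, lie far from the pathway lists, whose medians as drawn, genes within the background included, run from -0.16 to -0.03.

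**Figure D5:**
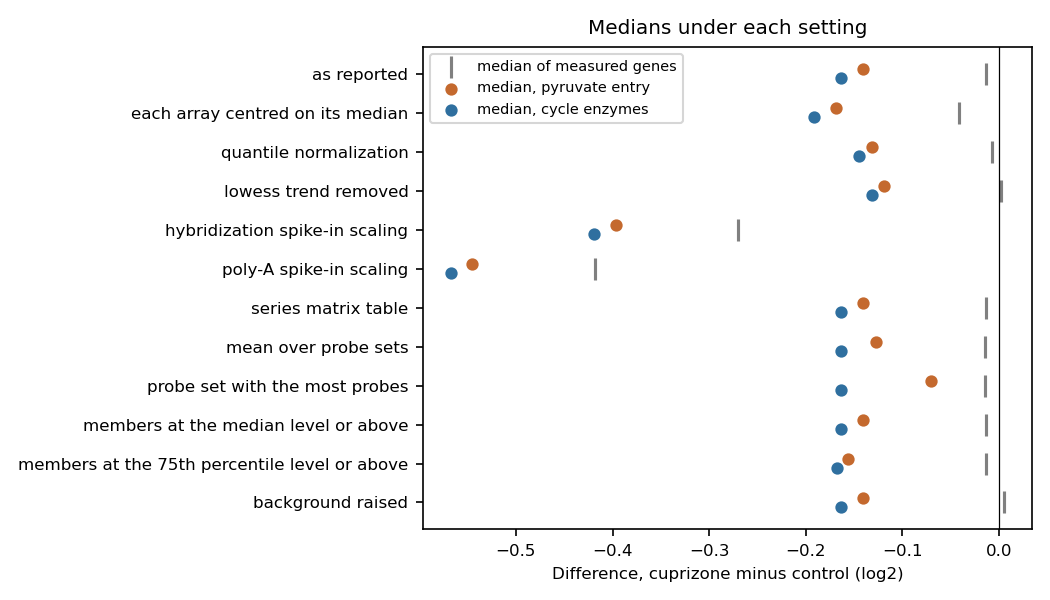
Median log2 difference of the entry genes, of the cycle genes and of the measured genes under each setting of the processing. Both arms lie below the measured genes in every row, by the least for the entry genes when the probe set with the most probes is used, which for Mpc1 is the one on chromosome 17.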

How the data were processed

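Total RNA of 2 animals was run on Affymetrix Mouse Gene 2.0 ST arrays. The authors deposited log2 values for 41345 probe sets. Per the submitters' processing notes these came from RMA and Affymetrix Power Tools, without versions. RMA equalises the signal distributions of the arrays, so a shift of total RNA is removed. The 2 deposited tables differed by at most 5e-05. The array's annotation columns gave gene symbols, and the sources used here name no genome build for the array coordinates.

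Differences are log2 values, cuprizone minus control, with no further scaling. For a single gene with 1 value at or below the receptor background of its array, the upper limit of that background took its place, and the difference is written as "at least". Counts and medians of the cofactor, intermediate and assembly lists leave out genes within the background on both arrays and use the replaced values. Those of the members, other lists and measured genes use values as deposited. With 1 array per group no test was run. The members and lists were chosen with earlier results of these data known. All members were named, and from each other list the 2 measured genes with the largest absolute difference and any pathway gene past 1.5-fold. Gabra6, Pcp2, Drd2 and Rgs9 were named whatever their values, and of the marker lists only these and the list totals are given. Neighbours by start site, the naming of Gapdh and the respiratory chain set, with Atp5g1, were added after values were seen. Counting was tested on simulated data. Python 3.11.15, pandas 2.3.3 and statsmodels 0.14.6 were used.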

Additional observations from a re-analysis of the deposited data

How the results depend on the processing

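No paired analysis was possible because each group holds 1 array, and no array could be left out. Medians and counts were recomputed with each array centred on its median, quantile normalization, lowess removal of the trend (span 0.2), spike-in scaling, the other deposited table, other probe set rules, level filters, the background raised, list means and other memberships. A median counted as moved at 0.1 or more on the log2 scale. With hybridization spike-ins the medians were -0.40 for entry and -0.42 for the cycle and 3 members passed 1.5-fold. With poly-A spike-ins they were -0.55 and -0.57, and 11 members passed. Both follow from the scaling itself, which adds the same shift to every gene. At 1.2-fold 7 members passed, among them Mpc1 and Mpc2 with the limits given above, and at 2-fold 0. For single genes, all 34 differences moved past that limit with either spike-in scaling, as did that of Mpc1 under 2 other settings and that of Pdp2 under 1. The other 51 recomputed medians and counts stayed within these limits, including those with the Mpc1 probe set on chromosome 17, which was added after seeing the data. Some of the 51 could not move. The 2 deposited tables are nearly identical, and all 34 members reach the median level. A shift common to all genes leaves the difference of the arms unchanged. With 0 members past 1.5-fold as deposited, the 2-fold count was also fixed. The difference of the medians, entry minus cycle, was 0.02 as reported, -0.004 without kinases and phosphatases, 0.09 with the Mpc1 probe set on chromosome 17 and 0.11 with means.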

Other observations

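Of the 31 members with a promoter in the RefSeq table, 9 have a neighbour that starts within 1000 bases and runs away from them on the other strand. The other members were not searched. For 7 of these pairs the neighbour was above the background on at least 1 array, and in 4 of the 7 both genes had the same sign. The share of such pairs with the same sign over all genes was not counted. Beside Timm8b and Ssr4, Pikfyve, the lipid kinase next to Idh1, was at 6.70 in the control and 6.51 in the cuprizone sample. Ccdc127, which starts 77 bases from Sdha, was at 5.93 and 5.42, a log2 difference of -0.51, while Sdha differed by -0.08. Apip, an enzyme of methionine salvage that starts 162 bases from Pdhx, was at 4.69 and 4.84 (0.15), opposite in sign to Pdhx. Wdpcp, next to Mdh1, was at 5.39 and 5.42 (0.02), and Dcaf6, next to Mpc2, at 6.92 and 7.02 (0.09).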
